A study of Mus musculus with 6 samples.

Results

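The 38 genes described here are genes of macrophages and other myeloid cells (the blood lineage that holds macrophages, monocytes and neutrophils), taken by gene symbol from a table of 40840 genes, and each symbol matched 1 entry. Their levels were compared in 6 RNA-seq libraries of colonic organoids, which are 3-dimensional cultures of colon epithelium grown in Matrigel. All 6 libraries came from wild type C57BL/6 mice, 1 mouse per library, and held RNA taken on day 4 of culture. The 3 DSS libraries came from mice that drank 2.5% dextran sodium sulfate, a compound that injures the colon epithelium, in 2 courses of 5 days separated by 2 weeks, the first begun at 10 weeks of age, and their organoids were set up on day 14 after DSS. The 3 control libraries came from C57BL/6 mice with no DSS listed and no age listed, so the ages of the groups could not be compared. Crypts were released with EDTA and pipetting, passed through a strainer and embedded, and the methods describe no sorting of epithelial cells, so other cells of the colon wall were not removed by a gate. Levels are TPM, the share of all transcripts in a library that a gene holds, which are scaled for gene length so that levels of different genes can be set side by side.

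Macrophages arise from monocytes or from resident precursors under the growth factor receptor encoded by Csf1r and the transcription factor PU.1, encoded by Spi1. They sense bound antibody and other ligands through receptors that signal by the adaptors encoded by Tyrobp and Fcer1g, and they digest what they engulf in lysosomes with lysozyme, cathepsins and an oxidase. In the colon they lie in the lamina propria, just under the epithelium, and in the injured colon monocytes and neutrophils enter as well. Several of the 38 genes are also expressed by epithelium or other leukocytes, so a symbol on the list does not by itself name the cell that held the RNA.

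The libraries were epithelial by their markers. All 12 colon epithelial markers passed the filter on low values, and the summed level of the 12 was 15364 to 27849 TPM in DSS libraries and 24232 to 26655 TPM in control libraries. Epcam, an epithelial adhesion molecule, was at 1007, 1222 and 1115 TPM in DSS organoids, against 726, 781 and 826 TPM in control organoids (log2 fold change 0.52, SE 0.10, limma adjusted p = 0.0311), a call that was lost without any 1 control library or without DSS replicate 3 (adjusted p of up to 0.141). Of the 12 markers, 2 were higher and 0 were lower, and the other higher one was Cdx2, an intestinal transcription factor. Cdx2 was at 303, 302 and 327 TPM in DSS organoids, against 156, 157 and 142 TPM in control organoids (1.03, SE 0.09, adjusted p = 0.0055). Its calls with 1 library left out are not reported here. Between 11328 and 11607 genes reached 1 TPM in a library. Of the 11643 genes tested, 6.45% were higher and 3.89% were lower in DSS organoids at an adjusted p under 0.05.

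The myeloid genes lay mostly above their control levels in organoids from DSS-treated mice, and 28 of the 38 had a control mean under 1 TPM. Past the adjusted threshold of limma, 15 of the 38 were higher with a filter on low values and 16 without one. In 32 of the 38 genes every DSS library was above every control library, a pattern that 15.3% of the 20126 genes with a value above 0 showed. In 1 of the 38, Mrc1, every DSS library was below every control library, against 11.0% of those 20126 genes. The other 5, Lcp1, Fcgr2b, Aif1, Cd14 and Csf3r, overlapped between the groups. The median log2 fold change on log2(TPM + 1) was 1.16 over the 38 genes and 0.05 over all genes tested. RNA of more myeloid cells and more RNA per cell cannot be told apart in libraries made from whole cultures.

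Of the 38 genes, 21 had a mean of at least 1 TPM over the 6 libraries and were tested. Among these 21, 15 were higher, 0 were lower and 6 did not pass limma's adjusted threshold, beside 6.45% higher and 3.89% lower among all genes tested. At an unadjusted p under 0.05, 18 of the 21 were higher and 1 was lower, beside 18.1% higher and 11.5% lower among all genes tested. Of the 15 higher genes, 10 had a control mean under 1 TPM and passed the filter only through the DSS libraries, so their count describes that filter as well as the genes. The other 5, Lyz2, Pf4, Cd177, Irf8 and Apoe, came from the 10 genes with a control mean of at least 1 TPM, of which 5 did not pass. Without a filter, 16 of the 38 were higher and 0 were lower in limma's fit over 20126 genes, beside 2.27% higher and 1.51% lower among all of them, and 32 were higher and 1 lower at an unadjusted p under 0.05, beside 12.9% and 8.53% of all of them. Spi1, Apoe, Cd53, Cd52 and Trem2, called with the filter, did not pass without it (adjusted p of 0.0528, 0.0593, 0.0646, 0.0774 and 0.0782).

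**Figure D1:**
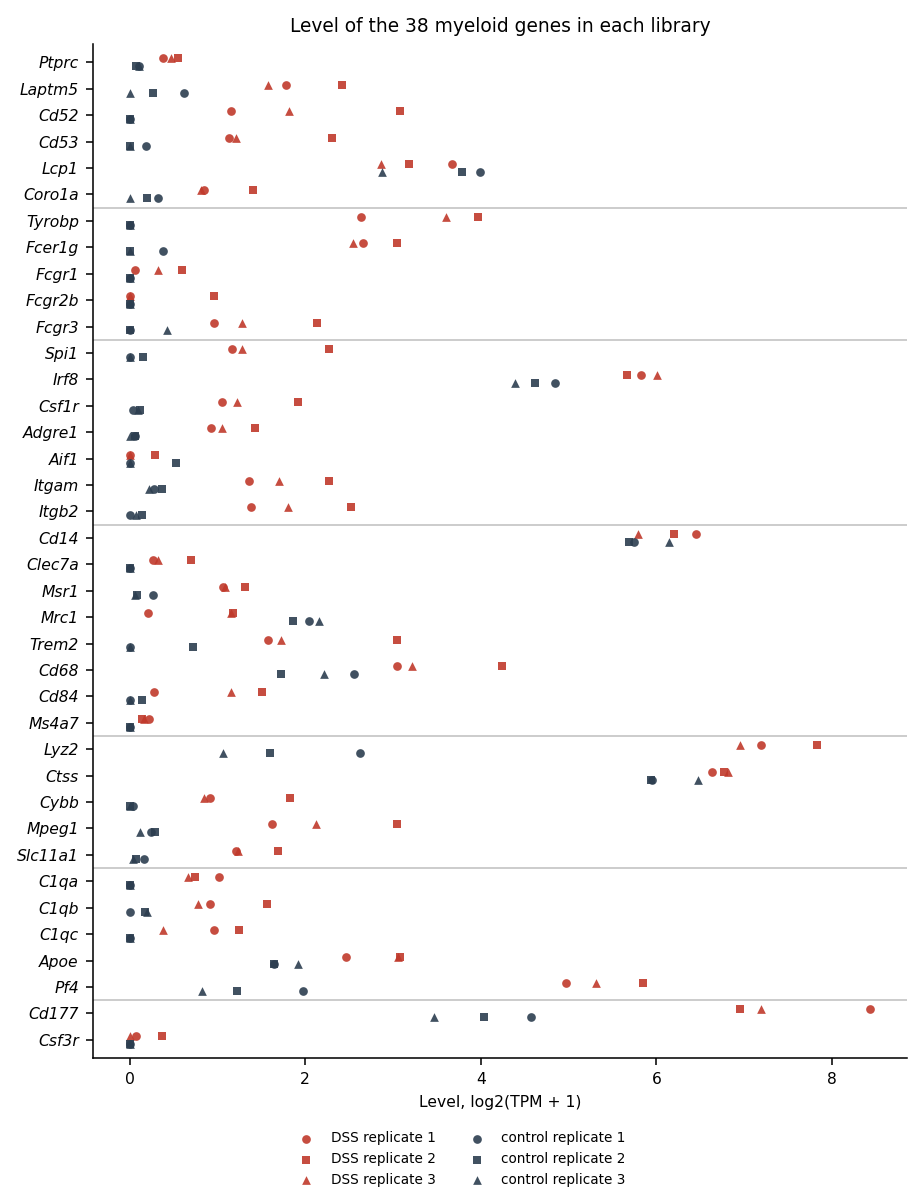
Level of each of the 38 genes as log2(TPM + 1) in the 3 DSS libraries (red) and the 3 control libraries (dark blue), 1 point per library, with marker shape for the replicate number and grey lines between groups of genes by role. In 32 genes all red points lie right of all dark blue points, and Mrc1 is the 1 gene with the opposite order.

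The number of these genes that were detectable differed between the groups as well. DSS libraries held 23, 30 and 26 of the 38 at 1 TPM or more, against 10, 10 and 9 in control libraries. In all, 9 of the 38, Cd52, Tyrobp, Fcgr1, Fcgr2b, Clec7a, Ms4a7, C1qa, C1qc and Csf3r, were listed at 0 in all 3 control libraries. Of the 9, 7 were above 0 in all 3 DSS libraries, the exceptions being Fcgr2b and Csf3r. Among the 28 genes with a control mean under 1 TPM, 25 (89.3%) had every DSS library above every control library. Of all 8733 genes with such a control mean and a value above 0, 9.45% did. All 38 genes summed to 820, 761 and 604 TPM in DSS libraries, against 199, 176 and 207 TPM in control libraries, with Cd177, Lyz2, Ctss, Cd14 and Irf8 the highest by DSS mean. The 28 genes with a control mean under 1 TPM summed to 34.8, 89.3 and 45.4 TPM in DSS libraries, against 2.12, 2.68 and 1.02 TPM in control libraries. No control library reached more than 0.65 TPM for any of these 28. These sums are small beside those of the epithelial markers in the same libraries.

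Lysosomal products included the gene with the largest log2 fold change among the 38 on log2(TPM + 1). Lyz2, lysozyme of macrophages and other myeloid cells, was at 145, 227 and 123 TPM in DSS organoids, against 5.19, 2.04 and 1.09 TPM in control organoids. The lowest DSS library was 23.6 times the highest control library. Its log2 fold change was 5.56 (SE 0.42, adjusted p = 0.0036), rank 2 among the 11643 genes tested. With 0.1 in place of 1 added to the TPM, the log2 fold change was 6.07 for Lyz2 and 6.59 for Tyrobp. Lyz2 was 17.7%, 29.8% and 20.3% of the summed level of the 38 genes in DSS libraries and 2.60%, 1.16% and 0.527% in control libraries. Lyz1, the lysozyme of Paneth cells and the near copy of Lyz2, was at 0.84, 0.54 and 0 TPM in DSS organoids, against 3.17, 0.22 and 1.23 TPM in control organoids, and did not pass (adjusted p = 0.398). Of the stretches of 50 bases in Lyz2 transcripts, 15.4% also occur in Lyz1 transcripts, so reads there were divided between the copies by estimation.

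Ctss, cathepsin S, a lysosomal protease that antigen-presenting cells use, was abundant in both groups. It was at 98.3, 108 and 111 TPM in DSS organoids, against 60.9, 60.3 and 87.9 TPM in control organoids, and the groups did not overlap. Its log2 fold change was 0.62 (SE 0.16, adjusted p = 0.0598), past the filter and short of the threshold. Mpeg1, perforin-2, a pore-forming protein of phagocytes, was at 2.08, 7.23 and 3.35 TPM in DSS organoids, against 0.18, 0.22 and 0.09 TPM in control organoids (log2 fold change 2.04, SE 0.36, adjusted p = 0.0233). Its call was lost without any 1 control library or without DSS replicate 3, with an adjusted p of up to 0.103.

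Slc11a1, the metal transporter Nramp1 of phagosomes, and Cybb, the membrane subunit of the phagocyte oxidase, lay under the filter. Slc11a1 was at 1.32, 2.24 and 1.35 TPM in DSS organoids, against 0.12, 0.05 and 0.03 TPM in control organoids, and it was higher in the fit without a filter (log2 fold change 1.29, SE 0.15, adjusted p = 0.0201). Cybb was at 0.89, 2.56 and 0.8 TPM in DSS organoids, against 0.03, 0 and 0 TPM in control organoids, and did not pass there (1.19, SE 0.27, adjusted p = 0.0699). Both separated the groups completely, and the call of Slc11a1 was lost without any 1 control library or without DSS replicate 3 (adjusted p of up to 0.117). The exact permutation test over the 20 arrangements of 3 against 3 libraries gives 0.1, the smallest two-sided p it allows, for each gene under the filter whose groups did not overlap.

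Among the secreted products, Pf4 changed most. Pf4, the chemokine platelet factor 4, is made by megakaryocytes and by some macrophages. It was at 30.5, 56.7 and 38.8 TPM in DSS organoids, against 2.93, 1.33 and 0.77 TPM in control organoids. The lowest DSS library was 10.4 times the highest control library, and the log2 fold change was 4.04 (SE 0.34, adjusted p = 0.0052), rank 5 of all genes tested. Apoe, a lipid carrier of macrophages and many other cells, was at 4.51, 7.43 and 7.34 TPM in DSS organoids, against 2.12, 2.14 and 2.79 TPM in control organoids (1.13, SE 0.21, adjusted p = 0.0268). Apoe was present in every control library, and its call was lost without any 1 control library or without DSS replicate 3, with an adjusted p of up to 0.126. Its neighbour in the same gene cluster, Apoc1, was at 1.18, 3.35 and 0 TPM in DSS organoids and listed at 0 in all control organoids. The groups of Apoc1 thus overlapped. Apoc2, also of that cluster, was at 16.8, 13.1 and 12.9 TPM in DSS organoids. It was at 14.5, 11.6 and 12.9 TPM in control organoids and did not pass (0.12, SE 0.15, adjusted p = 0.646).

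C1qa, C1qb and C1qc encode the 3 chains of C1q, the first component of the classical complement pathway, which in tissues is made chiefly by macrophages. C1qa was at 1.03, 0.67 and 0.58 TPM in DSS organoids and listed at 0 in all 3 control organoids. C1qb was at 0.89, 1.95 and 0.71 TPM in DSS organoids, against 0, 0.13 and 0.15 TPM in control organoids. C1qc was at 0.95, 1.38 and 0.3 TPM in DSS organoids and listed at 0 in all control organoids. The 3 chains were thus each above 0 in every DSS library and, apart from C1qb in a pair of control libraries, at 0 in control organoids. In the fit without a filter, C1qa was higher (0.81, SE 0.10, adjusted p = 0.0231), while C1qb (0.96, adjusted p = 0.0691) and C1qc (0.86, adjusted p = 0.0878) did not pass. The call of C1qa was lost without any 1 control library or without DSS replicate 3 (adjusted p of up to 0.124). No stretch of 50 bases was shared between the transcripts of the 3 chains.

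The adaptors that carry activating motifs for myeloid receptors were the next group. Tyrobp, which encodes DAP12, the partner of Trem2 and other receptors, was at 5.24, 14.6 and 11.2 TPM in DSS organoids and listed at 0 in all 3 control organoids. Fcer1g, which encodes the common gamma chain of Fc receptors, was at 5.31, 7.28 and 4.85 TPM in DSS organoids, against 0.3, 0 and 0 TPM in control organoids. Both adaptors were therefore at several TPM in each DSS culture and at or near 0 in each control culture. The log2 fold change was 3.40 for Tyrobp (SE 0.34, adjusted p = 0.0065) and 2.63 for Fcer1g (SE 0.22, adjusted p = 0.0052). Tyrobp, Fcer1g, Lyz2 and Pf4 were the only ones of the 15 genes whose call held without each of the 6 libraries in turn.

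The Fc receptors themselves were lower in level than the adaptors. Fcgr3, a receptor for immune complexes that signals through Fcer1g, was at 0.94, 3.4 and 1.42 TPM in DSS organoids, against 0, 0 and 0.34 TPM in control organoids (1.32, SE 0.35, adjusted p = 0.0595). Fcgr1, the high-affinity receptor for IgG, was at 0.04, 0.51 and 0.25 TPM in DSS organoids and listed at 0 in control organoids (0.32 without a filter, adjusted p = 0.226). Fcgr2b, the inhibitory receptor, was at 0, 0.95 and 0 TPM in DSS organoids and at 0 in control organoids. None of the 3 receptors passed. Reads can be shared here too, since 9.58% of the 50-base stretches of Fcgr3 transcripts occur in Fcgr2b transcripts.

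Of 15 further receptors that pair with these adaptors, 14 were in the table and 2 passed the filter. Clec4d, a C-type lectin that signals through Fcer1g, was higher, at 3.74, 7.93 and 3.99 TPM in DSS organoids, against 0, 0.2 and 0 TPM in control organoids (log2 fold change 2.49, SE 0.29, adjusted p = 0.0092). The 14 receptors summed to 6.63 to 17.3 TPM in DSS organoids and to 0.15 to 0.33 TPM in control organoids. Fcgr4, the fourth mouse Fc gamma receptor, was at 0.28, 1.11 and 1.08 TPM in DSS organoids and listed at 0 in control organoids. Of 18 further signalling and oxidase genes of phagocytes, 6 passed the filter and 3 were higher, among them Cyba and Lyn. Lyn, a kinase that acts downstream of these receptors, was at 13.7, 11.0 and 14.5 TPM in DSS organoids, against 7.59, 7.86 and 8.08 TPM in control organoids (0.66, SE 0.14, adjusted p = 0.0323). Cyba, the partner subunit of Cybb and also of epithelial oxidases, was abundant in both groups, at 343, 320 and 297 TPM in DSS organoids, against 196, 173 and 171 TPM in control organoids (0.82, SE 0.10, adjusted p = 0.0110). Among these genes, Clec4d was lost without control replicate 2 (adjusted p = 0.0523) and Cyba without control replicate 2 or 3 (up to 0.0737). Lyn was lost without any 1 control library or without DSS replicate 3 (up to 0.142).

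**Figure D2:**
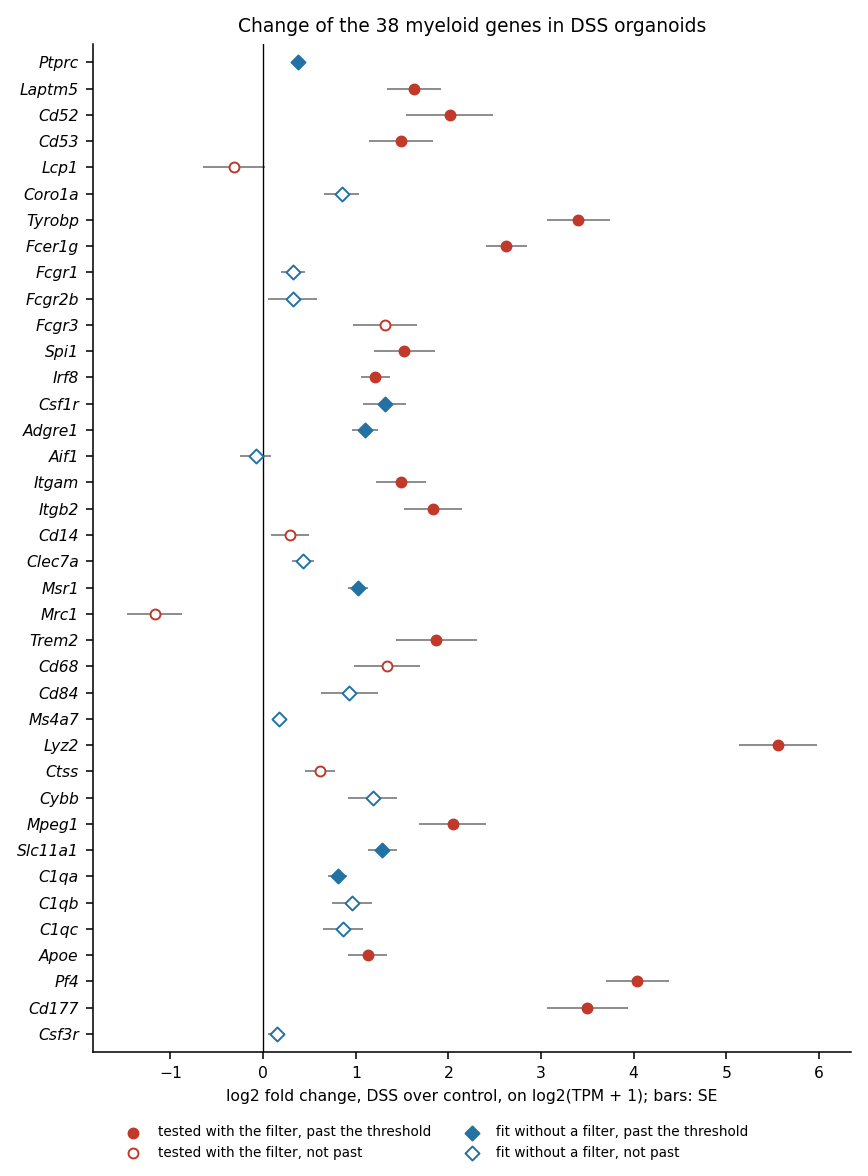
Log2 fold change of each of the 38 genes, DSS over control, on log2(TPM + 1), with bars for limma's SE, as circles for the 21 genes tested with the filter and diamonds for the 17 genes under it, taken from the fit without a filter. Filled symbols passed the adjusted threshold of 0.05, 15 circles and 6 diamonds, and Mrc1, at -1.17, is the gene farthest left.

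The genes that define the myeloid lineage were higher as well, at a few TPM. Spi1, which encodes PU.1, the transcription factor that myeloid cells require, was at 1.25, 3.84 and 1.43 TPM in DSS organoids, against 0, 0.11 and 0 TPM in control organoids (log2 fold change 1.53, SE 0.33, adjusted p = 0.0370). Itgam and Itgb2 encode the chains of the integrin CD11b/CD18, a complement receptor of phagocytes. Itgam was at 1.57, 3.83 and 2.25 TPM in DSS organoids, against 0.21, 0.29 and 0.17 TPM in control organoids (1.49, SE 0.27, adjusted p = 0.0244). Itgb2 was at 1.61, 4.75 and 2.49 TPM in DSS organoids, against 0, 0.1 and 0.05 TPM in control organoids (1.83, SE 0.31, adjusted p = 0.0214). The chains thus stood at similar levels in each DSS library. The calls of Spi1, Itgam and Itgb2 were lost without any 1 control library or without DSS replicate 3, with adjusted p of up to 0.133, 0.109 and 0.0991, and all 3 fell under the filter without DSS replicate 2.

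Csf1r, the receptor for the macrophage growth factor CSF1, and Adgre1, which encodes F4/80, the usual surface marker of mouse macrophages, were under the filter. Csf1r was at 1.08, 2.79 and 1.34 TPM in DSS organoids, against 0.03, 0.09 and 0.07 TPM in control organoids. Adgre1 was at 0.9, 1.7 and 1.08 TPM in DSS organoids, against 0.04, 0.04 and 0 TPM in control organoids. The lowest DSS library was 12.0 times the highest control library for Csf1r and 22.5 times for Adgre1. Both were higher in the fit without a filter, by 1.31 (SE 0.23, adjusted p = 0.0416) for Csf1r and 1.10 (SE 0.14, adjusted p = 0.0234) for Adgre1, and both calls were lost without any 1 control library or without DSS replicate 3 (adjusted p of up to 0.159 and 0.124). Aif1, which encodes the macrophage calcium-binding protein IBA1, did not share this pattern: it was at 0, 0.22 and 0 TPM in DSS organoids, against 0, 0.44 and 0 TPM in control organoids.

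Irf8, an interferon-regulated transcription factor of monocytes and dendritic cells, had a different baseline from the other lineage genes. It was at 55.7, 49.6 and 63.4 TPM in DSS organoids, against 27.9, 23.5 and 20.02 TPM in control organoids. It was thus well above the other lineage genes in both groups, and its 3 DSS libraries lay close together. The log2 fold change was 1.21 (SE 0.15, adjusted p = 0.0112), with the call lost without control replicate 2 or DSS replicate 3 (adjusted p of up to 0.0711). Of 9 genes for ligands of Csf1r, Csf3r and the integrin, 4 passed the filter and 1 was higher. That was C3, the complement protein whose cleaved form CD11b/CD18 binds, at 11.8, 11.7 and 9.96 TPM in DSS organoids, against 4.48, 3.99 and 2.74 TPM in control organoids (1.37, SE 0.18, adjusted p = 0.0118), a call that was lost without control replicate 2 or DSS replicate 3 (adjusted p of up to 0.0684). Csf1 and Icam1 had every DSS library below every control library, and of the 9 only C3 had the opposite order. Icam1 was at 4.49, 3.94 and 4.76 TPM in DSS organoids, against 13.3, 9.35 and 5.34 TPM in control organoids. Il34 was at 0.13, 1.73 and 0.48 TPM in DSS organoids, against 1.45, 2.73 and 3.43 TPM in control organoids. Csf1, Il34 and Icam1 did not pass (adjusted p = 0.431, 0.129 and 0.106).

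PU.1 binds sites around a purine-rich core, and the letters GAGGAA, read on both strands as GAGGAA or TTCCTC, were searched in the 250 bases before the start of each gene in RefSeq's promoter table (build GRCm38.p6, which is not the build of the deposited values). Of the 38 genes, 29 matched the table and 19 of the 29 (65.5%) held the letters, while 6986 of all 27025 genes in that table (25.9%) held them, each gene counted once over its windows. Among the genes called higher with the filter, 11 had a window and 7 of the 11 held the letters. Spi1, Csf1r, Adgre1, Tyrobp and Itgb2 were among the genes without a match in that table. The windows of 4 genes that the results turn on are shown, the integrin chain gene Itgam and Pf4, which hold the letters, Lyz2, which was higher and does not, and Mrc1, which was not higher and holds them at 3 places. Capitals mark the searched letters, and a match or its absence describes the sequence only. Only these exact letters were searched, so a window without them, such as that of Lyz2, may hold another form of a purine-rich core. The windows run 5′ to 3′ on the strand of the gene: Itgam at chr7:128062390-128062639 (+), Pf4 at chr5:90772185-90772434 (+), Lyz2 at chr10:117282273-117282522 (-) and Mrc1 at chr2:14229164-14229413 (+).
Itgam: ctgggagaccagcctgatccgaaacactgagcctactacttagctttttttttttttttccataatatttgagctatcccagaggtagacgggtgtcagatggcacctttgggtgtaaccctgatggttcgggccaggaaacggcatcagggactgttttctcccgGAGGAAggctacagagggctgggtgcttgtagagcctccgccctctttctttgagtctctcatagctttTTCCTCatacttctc
Pf4: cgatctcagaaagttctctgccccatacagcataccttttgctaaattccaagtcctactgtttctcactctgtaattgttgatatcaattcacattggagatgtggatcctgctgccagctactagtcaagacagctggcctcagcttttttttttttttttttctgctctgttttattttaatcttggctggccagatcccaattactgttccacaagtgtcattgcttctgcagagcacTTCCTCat
Lyz2: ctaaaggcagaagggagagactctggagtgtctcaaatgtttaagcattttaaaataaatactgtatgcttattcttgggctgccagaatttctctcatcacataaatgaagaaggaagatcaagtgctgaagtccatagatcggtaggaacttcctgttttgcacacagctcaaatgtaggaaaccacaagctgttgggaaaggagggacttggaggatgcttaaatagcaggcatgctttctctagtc
Mrc1: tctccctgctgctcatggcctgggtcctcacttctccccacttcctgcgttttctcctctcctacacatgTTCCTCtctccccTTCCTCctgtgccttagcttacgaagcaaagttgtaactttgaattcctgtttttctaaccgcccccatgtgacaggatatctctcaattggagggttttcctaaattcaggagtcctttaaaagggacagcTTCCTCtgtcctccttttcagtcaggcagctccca

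Genes shared by most leukocytes were partly higher. Ptprc, which encodes CD45, the phosphatase on all nucleated blood cells, was low throughout, at 0.3, 0.47 and 0.39 TPM in DSS organoids, against 0.08, 0.05 and 0.08 TPM in control organoids. Its groups did not overlap, and it was higher in the fit without a filter (log2 fold change 0.37, SE 0.06, adjusted p = 0.0349). Laptm5, a lysosomal membrane protein of leukocytes, was at 2.45, 4.34 and 1.98 TPM in DSS organoids, against 0.54, 0.2 and 0 TPM in control organoids (1.63, SE 0.29, adjusted p = 0.0242). Cd53, a leukocyte tetraspanin, was at 1.2, 3.94 and 1.31 TPM in DSS organoids, against 0.14, 0 and 0 TPM in control organoids (1.49, SE 0.35, adjusted p = 0.0442). Cd52, a short surface glycoprotein of leukocytes, was at 1.22, 7.46 and 2.52 TPM in DSS organoids and listed at 0 in all 3 control organoids (2.02, SE 0.47, adjusted p = 0.0437). Cd52 spread more widely among the DSS libraries than the other leukocyte genes. The calls of Laptm5, Cd53 and Cd52 were lost without any 1 control library or without DSS replicate 3, with adjusted p of up to 0.112, 0.161 and 0.153, and so was that of Ptprc (up to 0.157). Cd53 and Cd52 fell under the filter without DSS replicate 2.

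A pair of actin regulators stood on the list. Coro1a, coronin 1A of leukocytes, was at 0.8, 1.64 and 0.76 TPM in DSS organoids, against 0.25, 0.15 and 0 TPM in control organoids (0.85 without a filter, adjusted p = 0.0653). Lcp1, which encodes L-plastin, an actin-bundling protein that some epithelial cells also make, was at 11.8, 8.09 and 6.3 TPM in DSS organoids, against 14.9, 12.8 and 6.36 TPM in control organoids. Lcp1 overlapped between the groups and did not pass (-0.31, SE 0.33, adjusted p = 0.581).

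Surface receptors for microbial and cell debris differed among themselves. Trem2, a receptor for lipids that signals through Tyrobp, was at 1.98, 7.23 and 2.3 TPM in DSS organoids, against 0, 0.65 and 0 TPM in control organoids (log2 fold change 1.87, SE 0.44, adjusted p = 0.0441). Msr1, scavenger receptor A, was at 1.09, 1.48 and 1.13 TPM in DSS organoids, against 0.2, 0.06 and 0.04 TPM in control organoids, and was higher in the fit without a filter (1.02, SE 0.11, adjusted p = 0.0175). Trem2 was the 1 receptor of the 4 that passed the filter to be higher, and its call was lost without any 1 control library or without DSS replicate 3 (adjusted p of up to 0.140). The call of Msr1 was lost in the same 4 fits (up to 0.107), and Trem2 fell under the filter without DSS replicate 2. Cd68, a lysosomal glycoprotein of macrophages, was at 7.26, 17.9 and 8.3 TPM in DSS organoids, against 4.87, 2.3 and 3.63 TPM in control organoids. Its groups did not overlap and its log2 fold change was 1.34 (SE 0.36), with an adjusted p of 0.0630. Cd14, the coreceptor for lipopolysaccharide, was abundant in both groups, at 86.8, 72.6 and 54.3 TPM in DSS organoids, against 52.6, 50.7 and 69.8 TPM in control organoids, and the groups overlapped (0.29, SE 0.20, adjusted p = 0.389).

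Clec7a, Cd84 and Ms4a7, 3 low surface genes, separated the groups without passing the threshold. Clec7a, which encodes dectin-1, the receptor for fungal beta-glucan, was at 0.2, 0.63 and 0.25 TPM in DSS organoids and listed at 0 in control organoids (adjusted p = 0.107 without a filter). Cd84, a receptor of the SLAM family on leukocytes, was at 0.21, 1.84 and 1.22 TPM in DSS organoids, against 0, 0.1 and 0 TPM in control organoids (adjusted p = 0.152). Ms4a7, a membrane protein of macrophages, was at 0.17, 0.1 and 0.12 TPM in DSS organoids and listed at 0 in control organoids (adjusted p = 0.0597). At these levels the values rest on few reads, whose number TPM do not give.

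Mrc1 ran the other way. Mrc1, which encodes the mannose receptor CD206, is a marker of many tissue macrophages and is also made by some endothelial cells. It was at 0.16, 1.27 and 1.22 TPM in DSS organoids, against 3.13, 2.62 and 3.45 TPM in control organoids. Every DSS library was under every control library, and the log2 fold change was -1.17 (SE 0.30, adjusted p = 0.0548), short of the threshold. Under 3 other settings it was past the threshold in the same direction, with -1.17 under the stricter filter, -1.21 after median-ratio scaling and -1.25 after quantile normalization, and likewise without DSS replicate 1 (-0.85) or DSS replicate 2 (-1.34). Lyve1, a receptor for hyaluronan on lymphatic endothelium and some resident macrophages, was at 0.55, 1.44 and 1.26 TPM in DSS organoids, against 2.40, 2.02 and 2.45 TPM in control organoids, and did not pass (-0.68, SE 0.23, adjusted p = 0.104). Of 9 markers of resident macrophages, 4 (Timd4, Cd163, Vsig4 and Cd4) were listed at 0 in all 6 libraries, and Lyve1 was the 1 that passed the filter. Lyve1 was also the 1 with every DSS library below every control library, and 2, Marco and Siglec1, had the opposite order. Marco was at 0.17, 0.98 and 0.43 TPM in DSS organoids, against 0, 0.06 and 0 TPM in control organoids. Siglec1 was at 0.06, 0.18 and 0.04 TPM in DSS organoids and listed at 0 in control organoids.

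The genes linked to neutrophils were unlike each other. Cd177, a surface glycoprotein of neutrophils, was the most abundant of the 38 genes in DSS replicates 1 and 3, at 345, 123 and 145 TPM in the 3 DSS organoids, against 22.8, 15.4 and 10.1 TPM in control organoids. The groups were far apart, and the log2 fold change was 3.5 (SE 0.44, adjusted p = 0.0112), rank 9 of all genes tested, with the call lost without control replicate 2 or DSS replicate 3 (adjusted p of up to 0.0670). Csf3r, the receptor for the neutrophil growth factor G-CSF, was at 0.05, 0.29 and 0 TPM in DSS organoids and listed at 0 in control organoids (adjusted p = 0.451 without a filter). Thus Cd177 was abundant in libraries where Csf3r was under 1 TPM. Of 14 neutrophil granule and surface genes, 3 passed the filter, 0 were called by limma and 1 had an unadjusted p under 0.05, and Camp and Cxcr2 were listed at 0 in all 6 libraries. Of the 14, 3 (S100a8, S100a9 and Mmp8) had every DSS library above every control library, 0 had the opposite order, and the rest overlapped. Over the 20126 genes with a value above 0, 15.3% and 11.0% had these orders. S100a8 was at 12.5, 11.4 and 10.3 TPM in DSS organoids, against 9.34, 8.35 and 10.1 TPM in control organoids (adjusted p = 0.208). S100a9, the gene with the unadjusted p under 0.05, was at 8.22, 1.73 and 5.08 TPM in DSS organoids, against 0.93, 1.25 and 0 TPM in control organoids (1.71, SE 0.51, adjusted p = 0.0796). Mmp8, a neutrophil collagenase, was at 0.51, 1.69 and 1.41 TPM in DSS organoids and at 0 in control organoids.

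The 3 DSS libraries differed in how much of these RNAs they held. Of the 35 genes above 0 in all 3, 28 (80.0%) were highest in DSS replicate 2, 5 in DSS replicate 1 and 2 in DSS replicate 3. Over all 11562 tested genes above 0 in all 3, 34.9% were highest in DSS replicate 2. The pattern lay mainly in genes with a control mean under 1 TPM, of which 23 of 25 (92.0%) were highest in DSS replicate 2, with a median of 2.58 times the level in DSS replicate 1 and 2.08 times that in DSS replicate 3. Over all tested genes these medians were 1.04 and 0.97. The tested genes have a mean of at least 1 TPM, and other genes with a control mean under 1 TPM were not compared. C1qa and Ms4a7 were the exceptions among the 25, both highest in DSS replicate 1.

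Genes with a control mean of at least 1 TPM had no such common order. Of these 10, 5 were highest in DSS replicate 2, 3 in DSS replicate 1 and 2 in DSS replicate 3. Cd177, Cd14 and Lcp1 were highest in DSS replicate 1, and Irf8 and Ctss were highest in DSS replicate 3, while Lyz2, Pf4, Apoe, Cd68 and Mrc1 were highest in DSS replicate 2. Mrc1 in DSS replicate 1 was the lowest of all values relative to its gene's DSS mean among these 10.

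**Figure D3:**
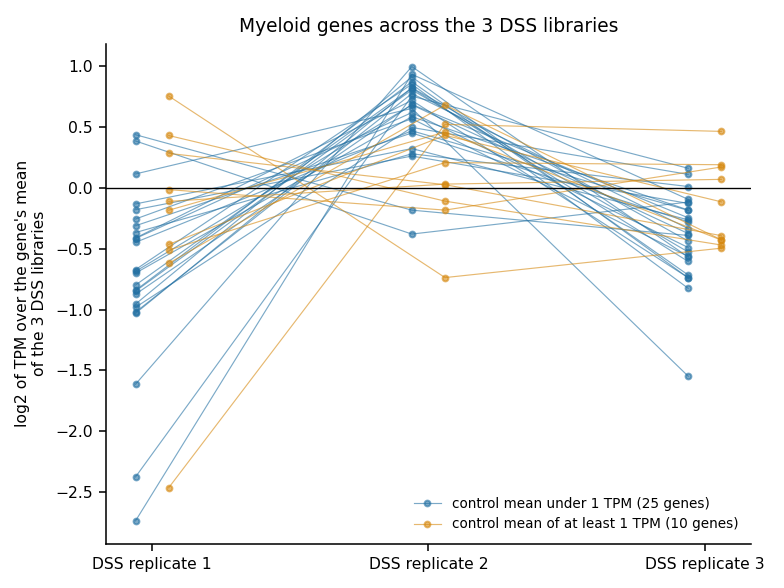
Level of each gene in the 3 DSS libraries as log2 of its TPM over its own mean of those 3 libraries, 1 line per gene for the 35 genes above 0 in all 3, blue for the 25 with a control mean under 1 TPM and orange for the other 10. The blue lines peak at DSS replicate 2 in 23 of 25 genes, and the orange lines peak there in 5 of 10.

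Removing a library changed the calls in both directions. Of the genes that passed the filter each time, 19, 10 and 4 were called without DSS replicate 1, 2 and 3, and 6, 4 and 7 without control replicate 1, 2 and 3. Over all genes the same fits called 2515, 1888 and 103 without a DSS library and 140, 44 and 148 without a control library. Without DSS replicate 2, 14 of the 38 genes passed the filter, against 21 with all libraries. The median log2 fold change of the 38 genes stayed between 0.96 and 1.3 in these 6 fits.

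Markers of lymphocytes, dendritic cells, eosinophils and mast cells were low in the same libraries, at no more than 6.91 TPM summed over a list. Of 16 T and NK cell genes, 11 were listed at 0 in all 6 libraries, among them Cd3e, Trac and Cd2. The 16 summed to 1.98 to 3.09 TPM in DSS organoids and to 4.79 to 6.91 TPM in control organoids. Lck, a kinase of T cells, made up most of the control sums, at 1.60, 1.12 and 2.58 TPM in DSS organoids, against 5.24, 4.56 and 6.81 TPM in control organoids, and was lower in DSS organoids (-1.26, SE 0.24, adjusted p = 0.0282), except without any 1 control library or without DSS replicate 3 (adjusted p of up to 0.104). Of the 16, only Lck had every DSS library below every control library, and only Il7r had the opposite order. Il7r was at 0.38, 1.23 and 0.32 TPM in DSS organoids, against 0.04, 0.04 and 0 TPM in control organoids (adjusted p = 0.144 without a filter). Of 9 B and plasma cell genes, 4 were at 0 in all libraries, among them Ighm, Igkc and Mzb1, and the sums were 0.32 to 0.47 TPM in DSS organoids and 0.12 to 0.62 TPM in control organoids. Of 10 dendritic cell genes, Flt3, Xcr1, Clec9a and Cd209a were at 0 throughout, and the sums were 0.22 to 0.99 TPM in DSS organoids and 0.23 to 0.26 TPM in control organoids. The 11 eosinophil and mast cell genes summed to 1.06 to 5.05 TPM in DSS organoids and to 1.08 to 3.00 TPM in control organoids, with Epx, Cpa3, Mcpt4, Tpsb2 and Ms4a2 at 0. The ranges of the eosinophil and mast cell, dendritic cell and B cell sums overlapped between the groups.

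Stromal markers were as low. The 8 fibroblast genes summed to 0.98 to 2.10 TPM in DSS organoids and to 0.98 to 1.21 TPM in control organoids, with Col1a2, Col3a1, Lum and Thy1 at 0 in all libraries. The 6 endothelial genes summed to 0.33 to 0.47 TPM in DSS organoids and to 0.40 to 0.58 TPM in control organoids. The 6 smooth muscle genes summed to 0.13 to 0.45 TPM in DSS organoids and to 0.31 to 1.47 TPM in control organoids. The 6 nerve and glia genes summed to 0.84 to 1.32 TPM in DSS organoids and to 0.98 to 1.14 TPM in control organoids. Over all 38 myeloid genes the sum in the lowest DSS library was 2.92 times that in the highest control library, and over their partner receptors 20.1 times. Other myeloid lists had high sums, which for neutrophils and monocytes rested largely on 1 gene each. The neutrophil, monocyte and further macrophage sums overlapped between the groups. The 14 neutrophil genes summed to 463 to 2921 TPM in DSS organoids, against 1471 to 2747 TPM in control organoids. Ly6g alone was at 437 to 2906 against 1460 to 2737 TPM. The 8 monocyte genes summed to 613 to 1508 against 865 to 1412 TPM. Plac8 alone was at 602 to 1490 against 856 to 1366 TPM. Of these lists, 3 of the 14 and 3 of the 8 passed the filter. The 30 further macrophage genes, of which Cd63 was the highest, summed to 2669 to 3063 against 2724 to 3306 TPM. The 18 phagocyte signalling and oxidase genes did not overlap, at 380 to 406 against 212 to 236 TPM. Cyba alone was at 297 to 343 against 171 to 196 TPM. The part of other cell types in the myeloid results was not tested.

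**Figure D4:**
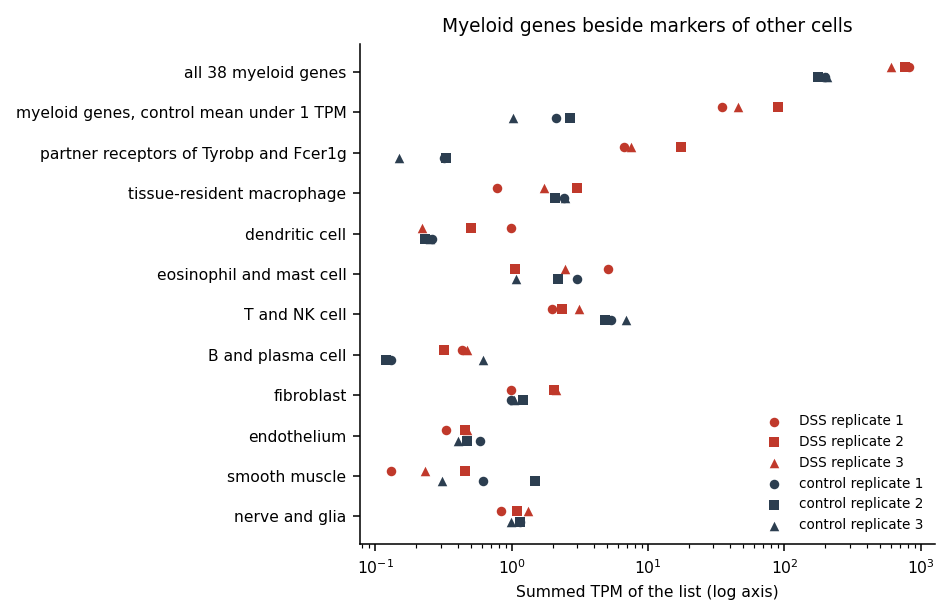
Summed TPM, on a log axis, of all 38 myeloid genes, of the 28 among them picked for a control mean under 1 TPM and of 10 marker lists, in the 3 DSS libraries (red) and the 3 control libraries (dark blue), 1 point per library. The myeloid genes and the partner receptors are higher in every DSS library, the T and NK cell list is lower there, and the sums of the remaining lists lie between 0.12 and 5.05 TPM in every library. The lists of neutrophil, monocyte, further macrophage and phagocyte signalling genes are not drawn.

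Further macrophage genes outside the 38 were partly higher. Of 30 such genes all were in the table, 18 passed the filter, 6 were higher and 1 was lower. Of the 4 higher genes with the smallest p, Tlr2, a receptor for bacterial lipopeptides, was at 11.8, 12.0 and 14.3 TPM in DSS organoids, against 5.84, 6.22 and 6.12 TPM in control organoids (0.95, SE 0.12, adjusted p = 0.0120). Nos2, the inducible nitric oxide synthase, was at 36.6, 19.8 and 18.3 TPM in DSS organoids, against 5.05, 4.30 and 2.48 TPM in control organoids (2.36, SE 0.32, adjusted p = 0.0127). Lilrb4a, an inhibitory receptor of myeloid cells, was at 3.40, 9.13 and 4.45 TPM in DSS organoids, against 0.45, 0.31 and 0 TPM in control organoids (2.33, SE 0.34, adjusted p = 0.0154). Mmp12, macrophage elastase, was at 9.27, 57.7 and 18.5 TPM in DSS organoids, against 0.78, 0.71 and 0.49 TPM in control organoids (3.78, SE 0.58, adjusted p = 0.0169). Lilrb4a and Mmp12 were highest in DSS replicate 2, like most of the 38 genes, and Nos2, which epithelium also makes, was highest in DSS replicate 1. The 1 lower gene was Maf, a transcription factor of resident macrophages and other cells, at 0.22, 0.19 and 0.32 TPM in DSS organoids, against 1.42, 2.36 and 1.84 TPM in control organoids (-1.20, SE 0.21, adjusted p = 0.0233). Of these 5 genes, Tlr2, Lilrb4a and Mmp12 were lost without any 1 control library or without DSS replicate 3 (adjusted p of up to 0.0827), Nos2 without control replicate 2 or DSS replicate 3 (up to 0.0684) and Maf without DSS replicate 3 (0.0843), and Maf fell under the filter without any 1 control library.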

How the data were processed

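RNA was sequenced from colonic organoids of 3 DSS-treated and 3 control mice. The authors deposited 1 table of TPM values for 40840 genes. Tools named in the submitters' processing notes are Trim Galore 0.6.7, cutadapt 3.5, STAR 2.7.7a and 2.7.10a, RSEM 1.3.1, and the build is GRCm39. RSEM divides reads among near-identical copies by estimation. Strand is not given in the sources used here, so overlapping antisense genes may not have been told apart. The deposited TPM keep no sequencing depth, so no counting interval is given and a value of 0 is called listed at 0.

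Values were analysed as log2(TPM + 1), with a pseudocount of 1, in R 4.3.3. Genes with a mean of at least 1 TPM over the 6 libraries (11643) were compared between DSS and control with limma 3.58.1 (empirical Bayes with a mean-variance trend, two-sided), and a gene was called at a Benjamini-Hochberg adjusted p under 0.05, adjusted over every gene in the fit. Fold changes on this scale understate the change of low genes. Genes under the filter were read from the same fit without a filter (20126 genes above 0 in at least 1 library). The fit was also run on simulated data, and the outcome is not reported here. Single values were also compared by an exact permutation test. No library repeated another, since any pair held equal TPM in at most 75 genes tested. Alternatives were another pseudocount, filter, scaling, trend setting, a replicate block and leaving out each library.

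All 38 genes are named. Of each other list, up to 4 genes past the threshold by smallest p and up to 3 markers with the highest values may be named, with Lyz1 and Fcgr4. Genes named as listed at 0, and Apoc1, Maf, Mmp8, S100a8, S100a9, Lyve1, Marco and Siglec1, were chosen after their values were seen. So were Apoc2, Cd63, Csf1, Icam1, Il34, Il7r and Ly6c2. Some genes of the other lists are counted and not reported here by name. The 38 genes and the lists were chosen with earlier results of these data known. Shared 50-base stretches were counted in GENCODE transcripts, and promoter windows came from RefSeq.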

Additional observations from a re-analysis of the deposited data

How the results depend on the processing

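With all 6 libraries, 1204 genes were called. Without a filter on low values 759 were called, and with the replicate number as a block 531 were called. The replicate block kept 12 of the 15 myeloid calls and lost Spi1, Cd52 and Cd53 (adjusted p = 0.0544, 0.0561 and 0.0690), with Lyn, Maf, Ace and Epcam of the other genes named. Without a filter the block left 0 of 20126 genes called by limma, so that the calls of Csf1r, Adgre1, Msr1, Slc11a1, C1qa and Ptprc were lost (adjusted p = 0.106 to 0.131). In that fit 32 of the 38 were higher and 1 lower at an unadjusted p under 0.05, and the share of all genes was not computed. The numbers were not taken as pairs: deviations from the group means correlated at 0.20, 0.03 and 0.04 in same-numbered libraries, and DSS replicates 2 and 3 correlated best with another number. Leaving out 1 library at a time gave 44 to 2515 genes and 4 to 19 myeloid genes. The median log2 fold change of the 38 genes, 1.16, was 3.02 with a pseudocount of 0.1 and 0.96 to 1.3 with 1 library left out. Of all genes called, 751 were higher and 453 lower, against 622 and 588 after median-ratio scaling and 564 and 606 after quantile normalization. The myeloid calls were 15 higher and 0 lower, against 15 and 1 after median-ratio scaling, 14 and 1 after quantile normalization, and 18 and 1 with a filter of at least 1 TPM in at least 3 libraries, the lower one being Mrc1. Aif1, -0.08 in the fit without a filter, ran between -0.18 and 0.10 with 1 library left out, positive without control replicate 2, and no other of the 38 genes changed sign in these fits. Among the other genes named, Plac8 (-0.09) ran between -0.39 and 0.26 with 1 library left out, and Lyn, Ace, Lck and Epcam did not pass without a filter. The causes of these changes were not tested. Depth is unknown, which limits what can be said of the genes under 1 TPM.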

Other observations

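Some genes known from myeloid cells were abundant in every library and showed no shared direction. Ly6g, the usual surface marker of mouse neutrophils, was at 437, 2906 and 1357 TPM in DSS organoids, against 1460, 2484 and 2737 TPM in control organoids (log2 fold change -0.84, SE 0.65, limma adjusted p = 0.433). It was the highest of 14 neutrophil genes, in libraries where Camp and Cxcr2 were listed at 0. Plac8, also used as a monocyte marker, was at 602, 1490 and 1071 TPM in DSS organoids, against 856, 998 and 1366 TPM in control organoids (-0.09, SE 0.34, adjusted p = 0.883). Ccr2, the receptor that brings monocytes into tissue, was listed at 0 in all 6 libraries. Of 8 monocyte genes, 3 passed the filter and 1 was higher, Ace, at 10.0, 15.5 and 10.3 TPM in DSS organoids, against 6.28, 4.55 and 2.69 TPM in control organoids (1.26, SE 0.28, adjusted p = 0.0413), a call that was kept only without DSS replicate 1 when 1 library was left out (adjusted p of up to 0.142). Ly6c2, a monocyte marker that also passed the filter, was at 0.34, 2.37 and 0.87 TPM in DSS organoids. It was at 2.55, 5.80 and 43.7 TPM in control organoids and did not pass (-2.33, SE 0.90, adjusted p = 0.144). Of the 8, only Ly6c2 had every DSS library below every control library, and 3 had the opposite order.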
